A study of Mus musculus with 15 samples.

Results

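The genes of oxidative phosphorylation were described in mechanically stretched and unstretched mouse podocytes. Members were protein-coding genes whose symbol starts with mt-Nd, mt-Co, mt-Atp or mt-Cytb, with Nduf followed by a, b, c, s or v and a digit, with Uqcr, with Cox4 to Cox8 or with Atp5, or is Sdha, Sdhb, Sdhc or Sdhd. This gave 98 of the 55416 genes counted, 13 on the mitochondrial and 85 on the nuclear genome. By complex they were 42 genes of complex I, 4 of complex II, 9 of complex III, 23 of complex IV and 20 of complex V. Ndufa4 and Ndufa4l2 were placed with complex IV, and Atp5s, a coupling factor now named Dmac2l that is not held to be a subunit of the enzyme, stayed among the complex V genes because the choice was by name.

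All 15 samples were SVI cells, a conditionally immortalised mouse podocyte line, differentiated and seeded on flexible silicone membranes. Podocytes are epithelial cells wrapped around the capillaries of the glomerulus, and stretching them serves as a model of raised pressure in the glomerulus. Experiment 1 held 3 unstretched samples and 6 low-stretch samples with a membrane deflection of 5 to 6 mm, and experiment 2 held 3 unstretched samples and 3 high-stretch samples with 7 to 8 mm, per the sample labels. No genotype or drug is named for any group, so the groups of an experiment differ in the labels by stretch alone, whereas amplitude and experiment cannot be told apart.

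Oxidative phosphorylation makes ATP in the inner mitochondrial membrane. Complexes I and II pass electrons from NADH and succinate to ubiquinone, complex III passes them to cytochrome c, complex IV passes them to oxygen, and complex V, the ATP synthase, uses the proton gradient that I, III and IV build. Complexes I, III, IV and V each join a few subunits made inside the mitochondrion, from long transcripts that are cut into single mRNAs, with many subunits made from nuclear genes and imported, while complex II is wholly nuclear. Podocytes carry this machinery together with an active glycolysis.

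Total counts per sample ranged from 172.2 M to 396.7 M. Among the podocyte markers with a median under 0.1 CPM (counts scaled to library size) over all 15 samples was Ptpro, and the summed level of 10 podocyte markers was 1190 to 1320 CPM in unstretched cells of experiment 1 and 1690 to 2580 CPM in those of experiment 2. Endothelial markers were at or under 0.269 CPM in sum in every sample. Markers of mesangial cells or fibroblasts summed to 1270 to 2010 CPM in unstretched cells of experiment 1 and 2650 to 7100 CPM in those of experiment 2, with the median of Pdgfra over all samples under 0.1 CPM, and proximal tubule markers to 988 to 1360 CPM and 967 to 1240 CPM. Unstretched replicate 3 of experiment 2 lay between the experiments in many of the values below, and results that rest on it are also given without it. The labels do not say what separates the replicates, so p-values measure the spread between these samples, which may be technical. In bulk RNA, fewer cells of a type and less RNA per cell cannot be told apart.

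The reads of several mitochondrial genes have a second possible origin, which bears on every level below. The nuclear genome holds old copies of mitochondrial DNA, and the annotation lists some of them as pseudogenes. Of the 13 mitochondrial genes, 5 (mt-Nd1, mt-Nd5, mt-Nd6, mt-Cytb and mt-Atp8) had no stretch of 100 bases, the read length, in any other annotated gene. At the other end, 99.85% of such stretches of mt-Co3, 99.49% of mt-Co2, 99.48% of mt-Atp6, 98.48% of mt-Nd4l and 97.59% of mt-Nd3 also lay in a nuclear copy. The first 60 bases of mt-Co2 and mt-Nd3, and bases 25 to 84 of mt-Co1, are printed beside their copies to show how alike the pairs are, with differing bases in capitals (positions from 1 at the 5′ end of the mitochondrial gene, GENCODE M21 transcripts).
mt-Co2: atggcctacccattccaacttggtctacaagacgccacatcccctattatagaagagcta
Gm28661: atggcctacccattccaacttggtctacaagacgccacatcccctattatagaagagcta
mt-Nd3: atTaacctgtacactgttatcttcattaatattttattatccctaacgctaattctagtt
Gm28438: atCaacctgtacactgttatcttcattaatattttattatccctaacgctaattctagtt
mt-Co1: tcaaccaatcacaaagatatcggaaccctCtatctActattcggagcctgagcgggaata
Gm13340: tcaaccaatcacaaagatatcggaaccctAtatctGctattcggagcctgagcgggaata

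mt-Co2 and Gm28661 on chromosome 1 were identical over 681 bases. mt-Nd3 and Gm28438 differed at 1 of 345 bases, T3C. mt-Co1 and Gm13340 on chromosome 2 differed at 37 of 1545 bases, among them C54A and A60G. The copies of mt-Co2, mt-Nd3, mt-Co3 and mt-Nd4l had nearly the count of the gene. Those of mt-Atp6 and mt-Nd4 did not, although they were identical to the gene over 678 and 876 bases. The copy had 1.00 times the count of mt-Co2 in every sample and 1.02 to 1.05 times that of mt-Nd3. The diverged Gm13340 had 0.00396 to 0.00662 times the count of mt-Co1, whereas Gm29216, another annotated copy of mt-Co1, had 0.25 to 0.354 times. The ratio to the copy was 0.961 to 1.01 for mt-Co3 (Gm28437), 0.999 to 1.00 for mt-Nd4l (Gm10222), 1.32 to 1.56 for mt-Atp6 (Gm10925) and 0.387 to 0.54 for mt-Nd4 (Gm28439). In the transcript TPM, a level scaled to transcript length and library, Gm10222 and Gm28439 were listed at 0 in every sample. For these genes the count therefore cannot be assigned to 1 genome by the deposited table. All 13 were kept, and the 5 without a copy are named where they bear on a result.

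Levels of different genes were compared per length, as mean TPM over the 15 samples. Among the mitochondrial genes mt-Atp8 (29600 TPM), mt-Co3 (11800) and mt-Co1 (9860) were highest, and mt-Nd3 (1320), mt-Nd5 (1480) and mt-Nd6 (2040) were lowest. TPM listed for nuclear copies is not included in these values. For Gm28438, the near-identical copy of mt-Nd3, it was 1210 to 3260 per sample. It was 506 to 11000 for Gm28661 (mt-Co2) and 791 to 6800 for Gm10925 (mt-Atp6). The ranks of mt-Nd3 and of the other genes with such copies are therefore uncertain. mt-Atp8 is very short, with 204 bases against 681 for mt-Atp6 (4560 TPM). Mean counts were 663 CPM for mt-Atp8 and 2250 CPM for mt-Atp6, so counts per length did not set mt-Atp8 above mt-Atp6. Its first rank holds in TPM only. The last 43 bases of mt-Atp8 are also the first of mt-Atp6, so reads across this stretch belong to both.
mt-Atp8 and mt-Atp6: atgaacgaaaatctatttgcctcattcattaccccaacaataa
Most nuclear members were lower than these, although the ranges overlapped. In complex I they ran from 565 TPM for Ndufa7 to 27.8 TPM for Ndufb4, in complex II from 180 TPM for Sdhd to 125 TPM for Sdhb and in complex III from 868 TPM for Uqcr11 to 105 TPM for Uqcrfs1. In complex V the highest was Atp5b, the catalytic beta subunit, at 2170 TPM, and the lowest, apart from a second identifier of Atp5o at 0.0233 TPM, was Atp5s at 15.5 TPM. All 35 nuclear genes of complex I reached 1 TPM, as did all of complexes II and III and 17 of 18 of complex V.

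Complex IV was the exception, with 13 of its 20 nuclear genes at 1 TPM or more. Its small subunits have isoforms for particular tissues or conditions. Cox8a stood at 1220 TPM, against 0.188 TPM for the muscle isoform Cox8b and 0 for Cox8c. Cox6a1 stood at 657 TPM and its muscle isoform Cox6a2 at 1.24 TPM, and Cox7a2 at 375 TPM with its muscle isoform Cox7a1 at 0.647 TPM. Cox4i2, the isoform of oxygen-poor tissue and lung, had 0.171 TPM, Cox6b2, the testis isoform, 0.14 TPM, and Ndufa4l2, a hypoxia-induced relative of Ndufa4, 0.366 TPM. In each pair named here the widely expressed isoform was the higher one.

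The unstretched cells of the experiments differed at baseline, with most nuclear members higher and most mitochondrial members lower in experiment 2. The 13 mitochondrial genes took 4.21%, 3.62% and 4.59% of all counts in unstretched replicates 1, 2 and 3 of experiment 1, and 1.54%, 1.13% and 2.58% in those of experiment 2. The groups did not overlap, and replicate 3 of experiment 2 was the highest of its group. The nuclear members took 0.854%, 0.941% and 0.798% in experiment 1 and 1.54%, 1.63% and 1.22% in experiment 2. Again the groups did not overlap, and the sample with the highest mitochondrial share had the lowest nuclear share in both experiments. The annotated nuclear copies of mitochondrial DNA took 2.00% ± 0.205 (SD, n = 3) in experiment 1 and 0.988% ± 0.403 (SD, n = 3) in experiment 2, also without overlap.

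**Figure D1:**
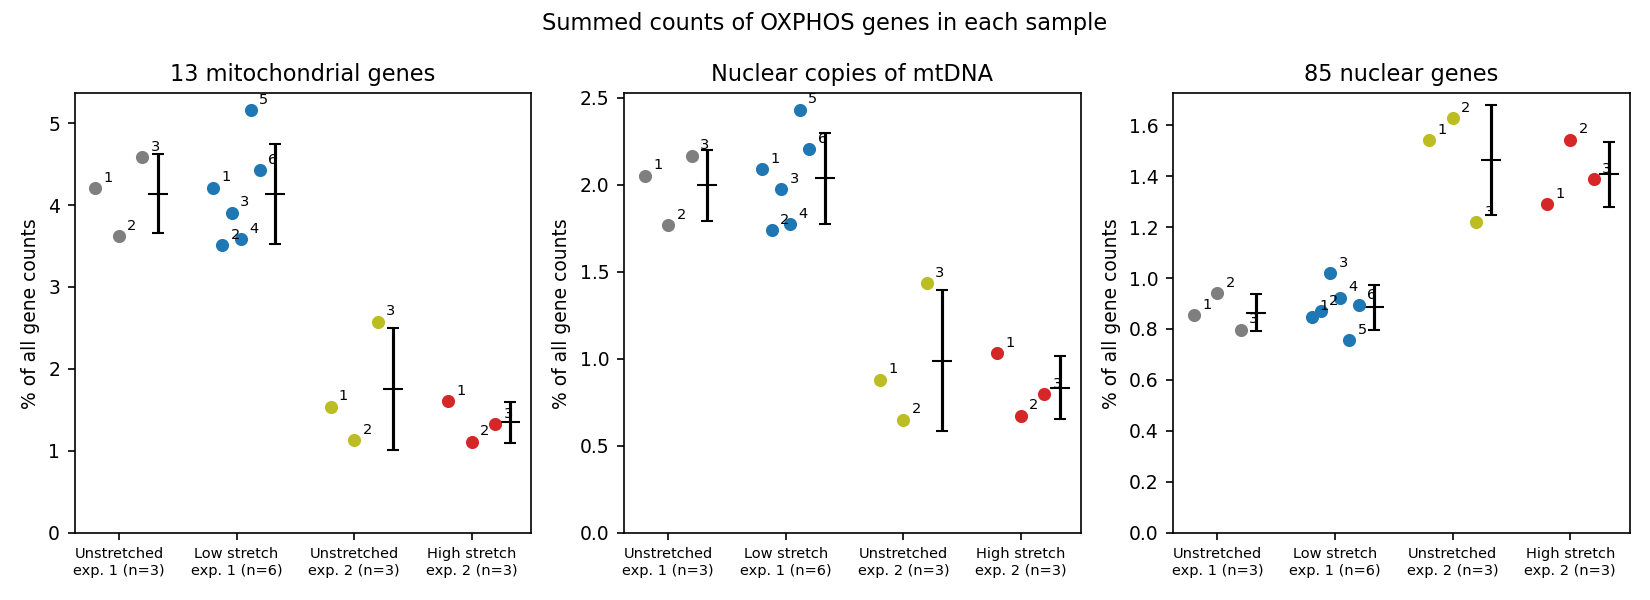
Counts summed over the 13 mitochondrial genes, the nuclear copies of mitochondrial DNA and the 85 nuclear genes, each as a percent of all gene counts in a sample (linear axes from 0); points are samples with their replicate number, bars show mean and SD. Experiment 2 lies lower than experiment 1 in the first 2 panels and higher in the third, and its unstretched replicate 3 lies nearest to experiment 1.

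Gene by gene, 80 of the 94 members tested passed at an adjusted p under 0.05 in the quasi-likelihood test of edgeR, 67 higher and 13 lower in experiment 2. Among all 20707 genes tested 62.5% passed, 29.7% higher and 32.7% lower, so a larger share of members than of all genes passed, and the direction differed between the genomes. Of the 81 nuclear members tested 67 were higher and 2 lower, at a median log2 fold change of 1.22. Of the 13 mitochondrial members 0 were higher and 11 lower, at a median of -1.29. The median over all genes was -0.07. Without unstretched replicate 3 of experiment 2, 71 members were higher and 16 lower, against 73.0% of all genes (33.2% higher and 39.8% lower). Members left out by the filter on low counts were Cox7b2, Cox8b, Cox8c and the second Atp5o.

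The nuclear rise spanned all 5 complexes. In complex I, 30 of 35 nuclear genes were higher and 1 lower, at a median log2 fold change of 1.28. The counts were 3 of 4 higher in complex II (median 1.03), 7 of 8 higher and 1 lower in complex III (1.32), 13 of 17 higher in complex IV (1.16) and 14 of 17 higher in complex V (1.11). Uqcr11, a small subunit at the edge of complex III, rose most. Its level was 77.8, 93.9 and 71.3 CPM in experiment 1 and 311, 378 and 153 CPM in experiment 2 (log2 fold change 1.79, SE 0.34, edgeR adjusted p 0.00538). The groups did not overlap, and replicate 3 of experiment 2 was again nearest to experiment 1. Cox4i1, the common form of subunit 4 of complex IV, stood at 178, 190 and 159 CPM against 648, 834 and 304 CPM (log2 fold change 1.76). Ndufa13, a membrane-arm subunit of complex I also known as GRIM-19, stood at 76, 80.4 and 67.9 CPM against 285, 335 and 130 CPM (1.74). Atp5e, the epsilon subunit of the ATP synthase stalk, rose by 1.73 and Ndufb11, an accessory subunit of complex I, by 1.71 on the log2 scale.

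Within complexes the nuclear genes did not move alike. In complex II, Sdhb (iron-sulfur subunit) and the membrane anchors Sdhc and Sdhd were higher, with log2 fold changes of 1.52, 1.28 and 0.79, whereas the flavoprotein Sdha stood at 211, 229 and 222 CPM against 213, 198 and 266 CPM. The Sdha groups overlapped (log2 fold change 0.01, SE 0.17, edgeR adjusted p 0.948). Ndufs1, which carries iron-sulfur clusters in the arm of complex I that takes electrons from NADH, was the nuclear member that fell most, from 78.7, 78.6 and 74.9 CPM to 33.9, 31.4 and 59.8 CPM (log2 fold change -0.92, edgeR adjusted p 0.0118, and 0.0591 without unstretched replicate 1 of experiment 2). The other 6 nuclear core subunits of complex I were all higher. Uqcrb, the ubiquinone-binding protein of complex III, had a log2 fold change of -0.62 (edgeR adjusted p 0.0266) and was the only other nuclear member called lower. The call was lost without unstretched replicate 1, 2 or 3 of experiment 1 or replicate 1 or 2 of experiment 2 (0.0655 to 0.105 in edgeR). The ATP synthase c-ring genes Atp5g1, Atp5g2 and Atp5g3, which encode the same mature protein, rose by 1.43, 1.31 and 1.01. Among the complex IV isoforms Cox6a1, Cox6b1, Cox7a2, Cox7a2l (a factor of supercomplexes), Cox8a and Ndufa4 rose by 0.55 to 1.51 on the log2 scale, and so did the rare Cox6a2, by 1.38, and Ndufa4l2, by 1.21 (edgeR adjusted p 0.0423). Cox4i2, Cox6b2 and Cox7a1 had log2 fold changes of -0.27, 0.00 and 0.75 and did not pass. Without unstretched replicate 1, 2 or 3 of experiment 1 or replicate 1 of experiment 2, Ndufa4 had an edgeR adjusted p of 0.103, 0.0516, 0.0713 and 0.0924. Ndufa4l2 lost its call without the same samples or without replicate 2 of experiment 2 (0.059 to 0.154 in edgeR).

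The 13 mitochondrial genes covered a wide range of differences. mt-Cytb, the cytochrome b of complex III and a gene with no copy elsewhere, stood at 4000, 3620 and 4530 CPM in experiment 1 and 1180, 823 and 2090 CPM in experiment 2 (log2 fold change -1.60, SE 0.32, edgeR adjusted p 0.00551). mt-Nd4l (log2 fold change -1.64), mt-Nd4 (-1.57), mt-Atp8 (-1.48) and mt-Nd5 (-1.41) were the other large falls. mt-Nd1 (-1.29), mt-Co2 (-1.29), mt-Nd6 (-1.24) and mt-Co1 (-0.94) followed. The 5 genes that shared no such stretch with another annotated gene all fell, by 1.24 to 1.60 on the log2 scale. mt-Atp6 (-0.87) and mt-Nd2 (-0.54) had edgeR adjusted p-values of 0.0446 and 0.0476, and both lost the call in each fit that left out 1 sample other than unstretched replicate 3 of experiment 2, with adjusted p-values of 0.0713 to 0.153 for mt-Atp6 without replicate 2, 1 or 3 of experiment 1 or replicate 2 or 1 of experiment 2, and of 0.0506 to 0.174 for mt-Nd2 without the same samples.

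mt-Co3 and mt-Nd3 were the mitochondrial genes that did not pass the test. mt-Co3, which encodes the third core subunit of complex IV, stood at 4790, 4270 and 4810 CPM against 4120, 3420 and 5180 CPM, groups that overlap, with a log2 fold change of -0.15 and an edgeR adjusted p of 0.543. mt-Nd3 stood at 305, 247 and 299 CPM against 544, 446 and 300 CPM, a log2 fold change of 0.59 and an edgeR adjusted p of 0.0662. Both had copies that took as many counts as the gene itself, as printed above for mt-Nd3. TPM lists gene and copy apart, but mt-Co3 and its copy are identical over 783 bases and the mt-Nd3 pair differs at 1 of 345. The split within a pair is therefore uncertain. mt-Co3 was listed at 14300, 12700 and 15400 TPM against 7270, 3630 and 11200. Its copy Gm28437 was listed at 1210, 1330 and 117 against 1210, 2520 and 3140. mt-Nd3 was listed at 1120, 791 and 1360 TPM against 2260, 1960 and 1020. Its copy Gm28438 was listed at 2900, 2370 and 2690 against 2090, 1210 and 2250. No difference of either gene alone can be read from these TPM values. Without unstretched replicate 3 of experiment 2, mt-Co3 passed as lower (log2 fold change -0.33, edgeR adjusted p 0.0485) and mt-Nd3 as higher (0.77, 0.00139).

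The shares of single genes in the summed counts of the 13 mitochondrial genes also differed between the experiments. For mt-Co3 and mt-Nd3 these counts cannot be assigned to 1 genome, so a shift within mitochondrial mRNA is not read from them. As a percent of the counts of the 13 genes, mt-Co3 took 12.9 ± 0.834 in unstretched cells of experiment 1 and 22.7 ± 2.02 in those of experiment 2 (SD, n = 3 each), mt-Nd3 took 0.786 ± 0.0476 and 2.48 ± 1.13, and mt-Cytb took 11.2 ± 0.235 and 6.93 ± 1.2. mt-Co1, the largest contributor, took 28.6 ± 1.3 and 29.1 ± 1.89. In stretched samples mt-Cytb took 11.2% under low stretch and 6.23% under high stretch, near the unstretched value of the same experiment.

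**Figure D2:**
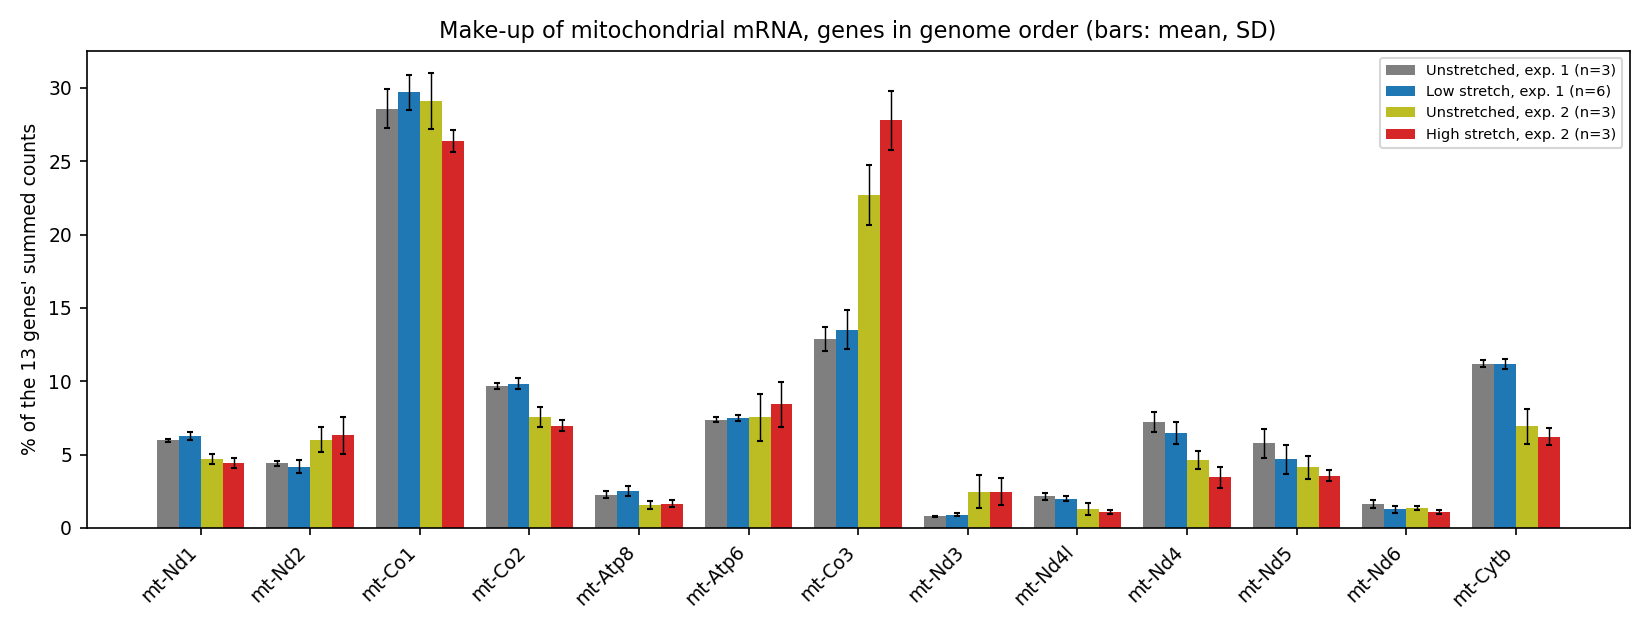
Share of each mitochondrial gene in the summed counts of all 13 (percent, linear axis), genes in their order on the mitochondrial genome; bars are group means with SD (n = 3, 6, 3 and 3). mt-Co3 and mt-Nd3 take more, and mt-Cytb, mt-Nd4 and mt-Co2 less, in both groups of experiment 2 than in those of experiment 1. Counts of mt-Co3, mt-Nd3, mt-Nd4 and mt-Co2 cannot be assigned to 1 genome.

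The direction of the mitochondrial difference depended on a correction for base composition. Baseline fold changes ran with the GC content of the genes, with a correlation across genes of 0.63 over 20503 genes and of 0.48 over the 81 nuclear members, a description of genes that share the same 6 libraries. The median GC content was 37.1% for the mitochondrial genes, 50.3% for the nuclear members and 49.4% for all genes tested. With each sample's GC trend removed, the mitochondrial median was 0.74 in place of -1.29, with 11 of 13 genes higher and 0 lower. With that correction 46.6% of all genes passed, 25.7% higher and 20.8% lower. mt-Cytb (0.10) and mt-Nd4l (-0.25) did not pass under this correction, and mt-Nd3 had the highest value of the 13 (3.25). The nuclear median was 0.96, with 68 of 81 genes higher and 1, Cox4i2 (-1.0), lower. Ndufs1 (-0.15, adjusted p 0.364 in edgeR) was no longer called, Uqcrb turned from -0.62 to 0.98 and Cox7b from -0.47 to 0.89, and Atp5f1, the b subunit of the ATP synthase stalk with 36.96% GC, went from -0.22 to 1.80. A correction for gene length left the medians at -1.25 and 1.22. The higher level of the nuclear members therefore held with and without the GC correction, and for the mitochondrial genes no direction can be given independently of it.

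**Figure D3:**
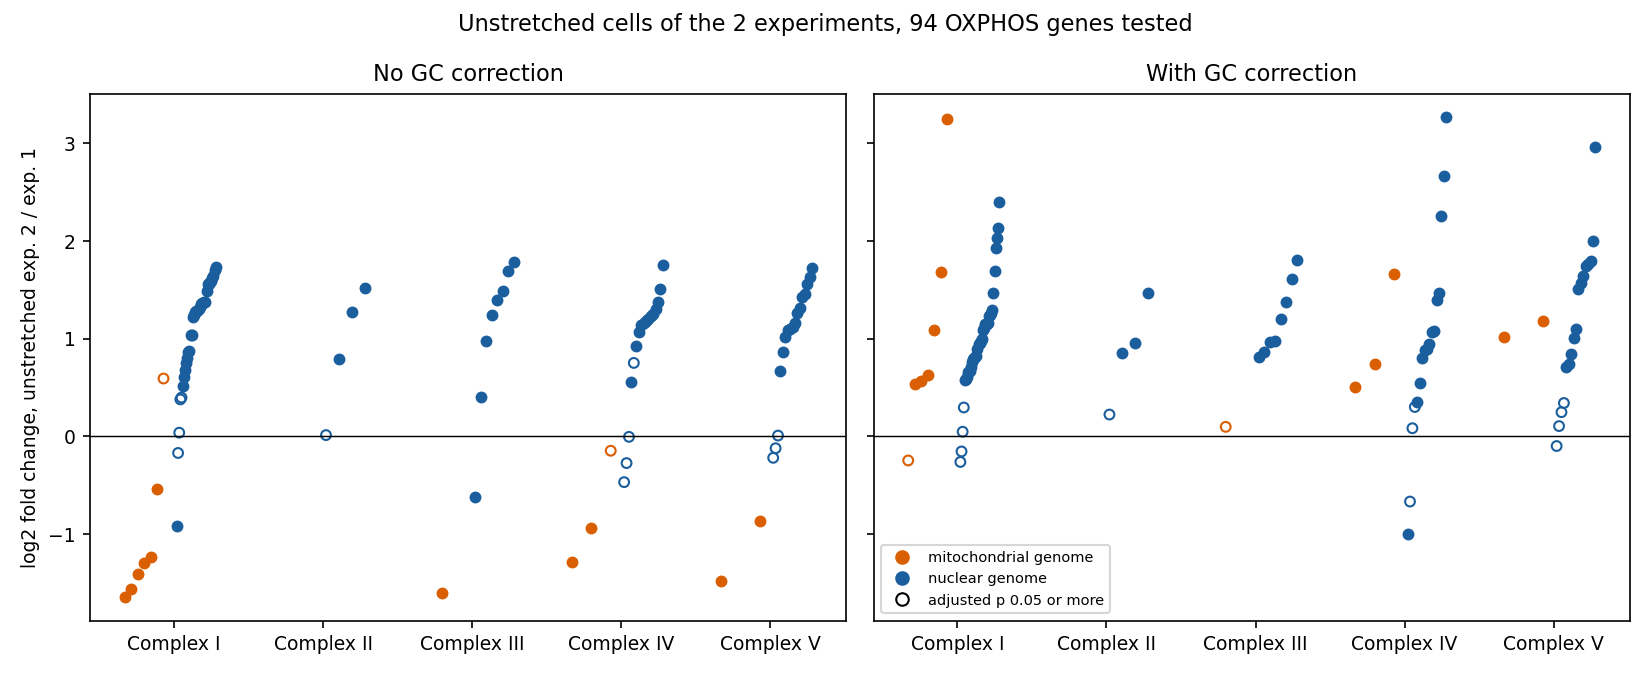
Log2 fold change of each member tested, unstretched cells of experiment 2 over experiment 1, by complex and genome, as fitted (left) and with a correction for GC content (right); filled points had an edgeR adjusted p under 0.05. Nuclear genes lie mostly above 0 in both panels, while mitochondrial genes lie mostly below 0 on the left and mostly above 0 on the right.

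Promoters of the nuclear members were examined for letters bound by the factors known to drive many of these genes. NRF1 (nuclear respiratory factor), GABPA (an ETS factor) and YY1 are textbook regulators of nuclear respiratory genes. In windows from 250 bases before to 50 after the start of transcription (RefSeq, GRCm38.p6, both strands), 66 members matched by symbol. The NRF1 word GCGCATG was present for 19.7% of them, against 4.4% of 27025 genes. The ETS word CCGGAAG was present for 24.2% against 9.9%, and the YY1 word AAGATGGCG for 10.6% against 1.6%. The promoters of Cox6a1, which holds both an NRF1 and an ETS word, of Uqcr11, the gene with the largest baseline rise, and of Cox7b, which holds none and was not called at baseline, are printed with these words, on either strand and overlapping where they do, in capitals, 5′ to 3′ along the gene: Cox6a1 at chr5:115348909-115349208 on the minus strand, Uqcr11 at chr10:80406772-80407071 on the minus strand and Cox7b at chrX:106015450-106015749 on the plus strand.
Cox6a1: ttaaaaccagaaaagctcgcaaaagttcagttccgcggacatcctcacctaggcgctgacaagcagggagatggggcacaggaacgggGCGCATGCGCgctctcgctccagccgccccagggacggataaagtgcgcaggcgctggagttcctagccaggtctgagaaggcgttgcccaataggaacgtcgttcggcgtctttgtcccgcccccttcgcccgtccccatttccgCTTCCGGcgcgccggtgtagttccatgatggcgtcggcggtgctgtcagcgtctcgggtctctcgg
Uqcr11: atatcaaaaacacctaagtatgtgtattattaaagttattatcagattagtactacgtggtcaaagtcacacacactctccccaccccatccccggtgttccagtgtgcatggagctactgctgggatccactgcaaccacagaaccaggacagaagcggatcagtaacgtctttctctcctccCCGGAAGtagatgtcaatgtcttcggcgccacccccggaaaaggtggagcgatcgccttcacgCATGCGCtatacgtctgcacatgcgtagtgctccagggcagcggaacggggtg
Cox7b: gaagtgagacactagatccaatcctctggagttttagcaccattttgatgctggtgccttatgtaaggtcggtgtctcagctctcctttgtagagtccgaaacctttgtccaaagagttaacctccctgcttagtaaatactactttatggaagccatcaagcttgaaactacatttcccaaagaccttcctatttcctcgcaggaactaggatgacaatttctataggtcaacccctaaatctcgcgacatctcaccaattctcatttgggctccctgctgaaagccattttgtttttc

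A match of letters is a description of the sequence and says nothing of binding in these cells. Other members did not follow the printed ones. Ndufa13 and Ndufb11 held none of the words and had baseline log2 fold changes of 1.74 and 1.71. Atp5j held an ETS and a YY1 word in 1 of its windows and had 0.01. A relation between words and baseline values was not tested. The printed windows also differ in base composition, with 63.0% GC for Cox6a1, 52.0% for Uqcr11 and 43.3% for Cox7b, and the baseline log2 fold changes of the genes were 1.51, 1.79 and -0.47 (edgeR adjusted p for Cox7b 0.0656, and 0.89 for its log2 fold change with the GC correction).

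Experiment 1 asks whether respiratory genes respond to the smaller amplitude. No member passed: 0 of 94 had an edgeR adjusted p under 0.05, against 5.45% of all 21672 genes (1.85% higher and 3.6% lower), and 3 members had an unadjusted p under 0.05. DESeq2 called 2, Cox6a2 and Atp5s, both lower, against 13.1% of all genes (6.06% higher and 7.03% lower). The median log2 fold change was 0.11 for nuclear members and 0.08 for mitochondrial members, against 0.01 for all genes, and 73 of the 81 nuclear members tested lay above 0, against 51.0% of all genes. The mitochondrial genes together took 4.13% ± 0.611 of counts in the 6 low-stretch samples (SD, n = 6) and 4.14% ± 0.487 in the unstretched ones (SD, n = 3), and the nuclear share 0.885% ± 0.0874 and 0.864% ± 0.0722. Both shares differed by less than the spread between replicates.

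The sample descriptions give a plate position but name no batch. Neighbouring positions were grouped here into runs, each starting with an unstretched sample. Samples of the same run deviated together in experiment 1 (mean correlation over genes of 0.664, against -0.33 between runs). With the run as a block, edgeR called 8 members, against 28.2% of all genes (13.7% higher and 14.5% lower). Sdhb (log2 fold change 0.23), Cox6b1, Atp5l, Uqcrb, Ndufb4 and Ndufa7 were higher and Cox6a2 (-1.60) and Atp5s (-0.55) lower. Within runs 1, 2 and 3 the mitochondrial share changed by -0.12, 0.05 and 0.06 and the nuclear share by 0.01, 0.05 and 0.05 on the log2 scale.

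Cox6a2, the heart and muscle form of subunit 6A of complex IV, had the largest fold change of any member in both stretch comparisons. In experiment 1 its level was 0.524, 0.52 and 0.451 CPM unstretched, and the lowest, median and highest values under low stretch were 0.103, 0.13 and 0.333 CPM. All 6 low-stretch samples lay below all 3 unstretched samples. On the log2 scale the change was -1.44 (SE 0.38, edgeR adjusted p 0.0513), just short of the threshold. Without low-stretch replicate 3 or replicate 4, the samples of plate run 2 with the highest values, the adjusted p was 0.0269 and 0.0458 in edgeR. Within runs the log2 changes were -2.17, -0.68 and -1.86. In experiment 2 the level was 1.29, 1.22 and 1.42 CPM unstretched and 0.244, 0.403 and 0.452 CPM under high stretch, again without overlap. On the log2 scale Cox6a2 fell by 1.85 (SE 0.29, edgeR adjusted p 0.0171), and the changes within runs were -2.41, -1.60 and -1.65. The call was lost without high-stretch replicate 1, 2 or 3 (edgeR adjusted p 0.0739, 0.053 and 0.089) or unstretched replicate 1 (0.0807). No stretch of 100 bases of Cox6a2 lay in another annotated gene. Its partner Cox6a1 stood at 94.4 ± 13.7 and 107 ± 22 CPM in experiment 1 and at 270 ± 92.9 and 258 ± 45.9 CPM in experiment 2 (unstretched and stretched), and neither difference passed (log2 0.16, edgeR adjusted p 0.618, and log2 -0.07, edgeR adjusted p 0.963).

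**Figure D4:**
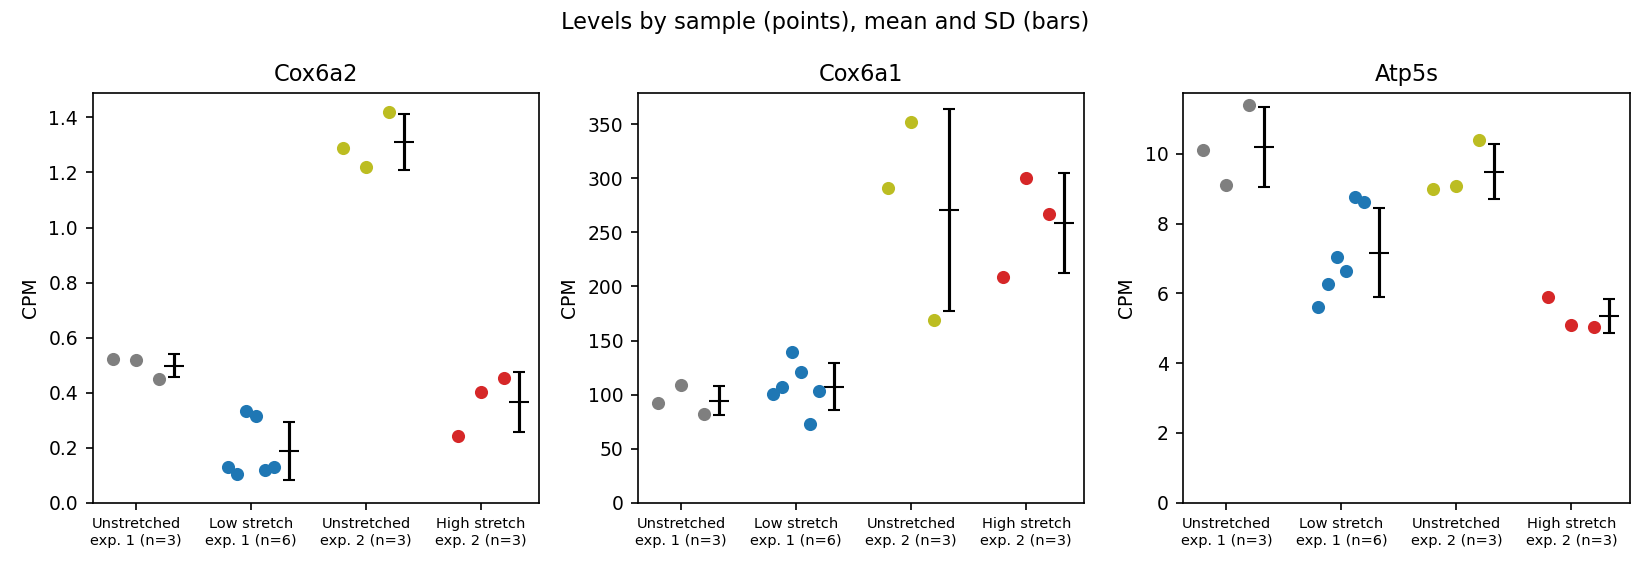
CPM of Cox6a2, its widely expressed partner Cox6a1 and Atp5s in every sample (linear axes from 0, scales differ between panels); bars show mean and SD. Cox6a2 is lower in all stretched samples than in the unstretched samples of the same experiment, and so is Atp5s, whereas the Cox6a1 groups overlap within each experiment.

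Atp5s was the other member that stood apart. It stood at 10.1, 9.11 and 11.4 CPM unstretched in experiment 1, with a lowest, median and highest value of 5.62, 6.84 and 8.77 CPM under low stretch, and at 8.99, 9.07 and 10.4 CPM unstretched and 5.91, 5.09 and 5.03 CPM under high stretch in experiment 2. Groups did not overlap in either experiment. Low stretch gave a log2 fold change of -0.53 (SE 0.15, edgeR adjusted p 0.0614) and high stretch one of -0.83 (SE 0.20, edgeR adjusted p 0.0667). Without low-stretch replicate 5 or 6 the first became 0.0362 and 0.0447 in edgeR. The summed level of 5 proximal tubule markers, of which Slc34a1 had a median over all samples under 0.1 CPM, was 494 to 805 CPM under low stretch and 320 to 491 CPM under high stretch, below the unstretched samples in both experiments. The sum of 8 mesangial cell or fibroblast markers was 1530 to 4030 CPM and 6750 to 10500 CPM, overlapping with the unstretched samples in both. The part of either in these results was not tested.

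Experiment 2 put the same question at the larger amplitude. Cox6a2 was the 1 member of 93 tested with an edgeR adjusted p under 0.05, against 3.47% of all 18524 genes (1.31% higher and 2.16% lower). DESeq2 called 2, Cox6a2 and Atp5s, both lower, against 7.57% of all genes (3.13% higher and 4.44% lower). With the plate run as a block the same 2 were called, against 8.35% (3.31% higher and 5.03% lower). In experiment 2 the run is also the replicate number, and samples of the same run correlated at -0.519 to 0.836. A pairing by run was thus not shown here. With the GC correction Cox6a2 was called lower and Cox7b higher, against 8.35% (3.64% higher and 4.71% lower). The nuclear median was -0.02, as was that over all genes, and 38 of 80 nuclear members lay above 0. The mitochondrial median was -0.38, and 12 of 13 genes lay below 0, led by mt-Nd4 (log2 fold change -0.74, standard error 0.29, edgeR adjusted p 0.283). mt-Nd4 stood at 853, 558 and 1300 CPM unstretched and 483, 569 and 571 CPM under high stretch, groups that overlap.

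The mitochondrial difference under high stretch rested on 1 unstretched sample. The summed share was 1.54%, 1.13% and 2.58% in unstretched replicates 1, 2 and 3 and 1.60%, 1.11% and 1.33% under high stretch. On the log2 scale the change within runs 1, 2 and 3 was 0.06, -0.03 and -0.96. Without unstretched replicate 3 the mitochondrial median was -0.03 and the nuclear median -0.21, and the members called were Cox6a2 and Cox8b, another rare muscle isoform. The share of all genes called in that fit is not given here, so these calls are not set against a background. Cox8b (log2 fold change -2.66) passed the filter on low counts only in that fit, through unstretched samples where it was high. Its lowest, median and highest values were 0.0186, 0.101 and 0.107 CPM in all unstretched samples. Under high stretch they were 0.0124, 0.0139 and 0.0206 CPM, so the full groups overlap and the call is not read as a fall. The nuclear share changed by -0.26, -0.08 and 0.19 within the runs, with no common direction. Within the mitochondrial mRNA, mt-Co3 took 26.3 to 30.1% under high stretch and 20.5 to 24.4% without, groups that do not overlap, although its CPM did not pass (log2 fold change 0.07, edgeR adjusted p 0.959).

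**Figure D5:**
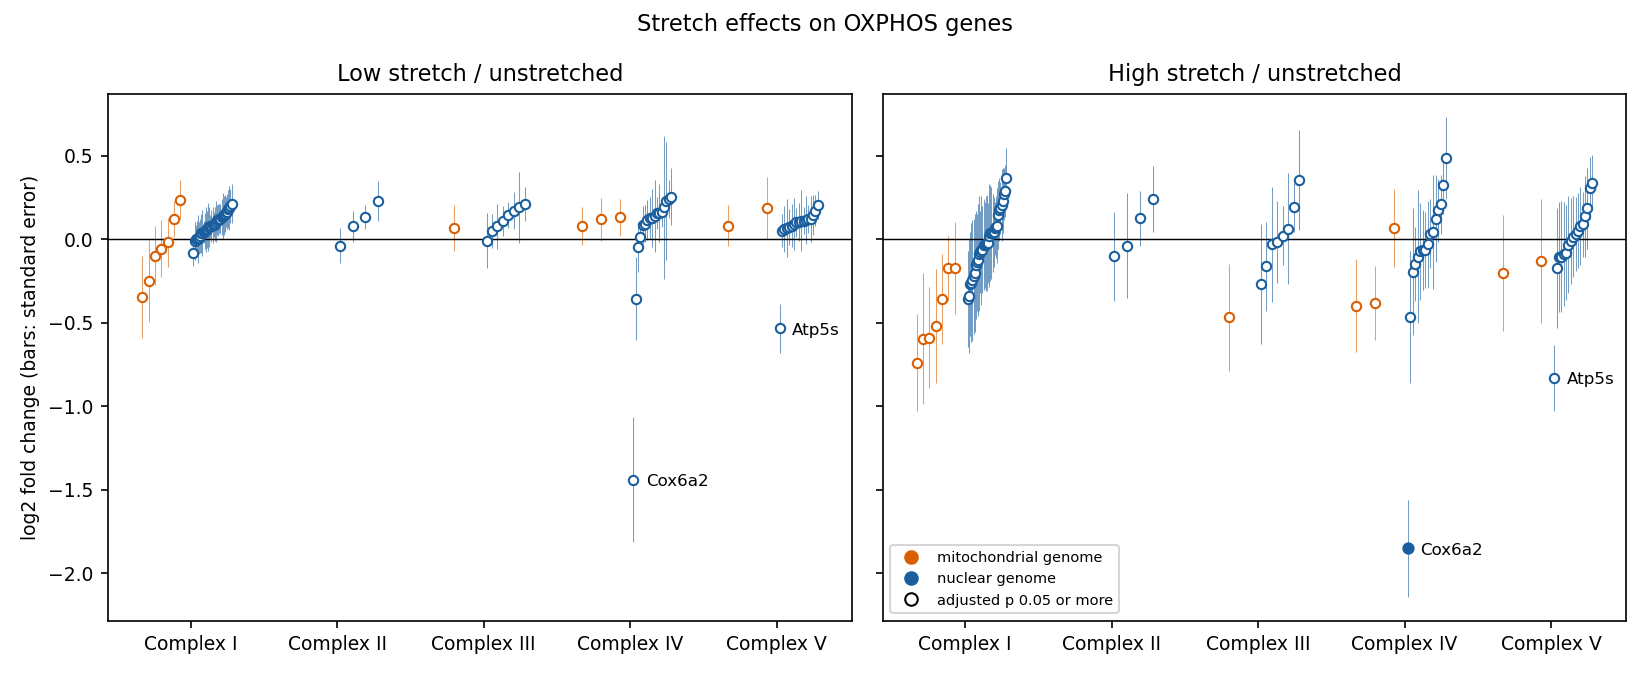
Log2 fold change of each member tested under low stretch (left) and high stretch (right) against the unstretched samples of the same experiment, by complex and genome, with standard errors; the filled point had an edgeR adjusted p under 0.05. Most nuclear members of all complexes lie near 0 on both sides, Cox6a2 and Atp5s lie lowest in both panels, and mitochondrial genes lie lower on the right, down to mt-Nd4 at -0.74, than on the left.

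Whether high and low stretch acted differently was tested with all samples in 1 model. edgeR called 0 of 94 members and 0 of 22015 genes (0.0%), and 1 member and 547 genes had an unadjusted p under 0.05. DESeq2 called 0 members as well. The lowest p-values belonged to mt-Co1, mt-Nd4 and mt-Nd1, with differences (high minus low) of -0.52, -0.66 and -0.50 on the log2 scale and an edgeR adjusted p of 1.0 each. The unstretched samples also enter the baseline comparison, so its values and these are not independent. For Cox6a2 the difference was -0.43 with a standard error of 0.54. The mitochondrial median of the differences was -0.44, and -0.03 without unstretched replicate 3 of experiment 2.

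Other genes of the pathway were examined from lists of assembly factors, regulators and neighbouring pathways. With 5.45% of all genes called under low stretch and 3.47% under high stretch, 0 or 1 call in a short list is near the background, and the counts below are read as such. Under low stretch 0 of 19 complex I assembly factors, 0 of 21 complex IV assembly factors tested, 0 of 18 genes of the citric acid cycle and 0 of 18 genes of mitochondrial import passed. Of 77 mitochondrial ribosomal proteins 1 passed, Mrps11, a protein of the small subunit, which fell by 0.93 on the log2 scale (edgeR adjusted p 0.00752). Ppard, a lipid-sensing nuclear receptor, was the 1 of 14 regulators that passed, at -0.28, and Pfkm, the muscle form of phosphofructokinase, the 1 of 20 glycolytic genes, at -0.30. Of 15 hypoxia targets only Adm, the vasoactive peptide adrenomedullin, passed, at -1.11. Ppard lost the call without any 1 of the 3 unstretched samples or low-stretch replicate 1 or 4 (edgeR adjusted p 0.0509 to 0.13), Pfkm without any 1 sample other than low-stretch replicate 3 (0.0536 to 0.18), and Adm without any 1 unstretched sample or low-stretch replicate 1, 2 or 6 (0.05 to 0.111). The mitochondrial rRNA mt-Rnr1, whose poly(A) tail is short, was the 1 of 2 rRNA genes that passed, at 62.8 to 81.6 CPM unstretched and 91.3 to 124 CPM under low stretch (log2 fold change 0.63, edgeR adjusted p 0.0118, and 0.0607 without unstretched replicate 1). Under high stretch Myc, a driver of growth and biosynthesis, was the 1 of 14 regulators that passed (log2 fold change 1.61, edgeR adjusted p 0.0186). Hk2, the inducible hexokinase that binds the outer mitochondrial membrane, was the 1 of 20 glycolytic genes (1.91, 0.00897). Its level was 25.0 to 29.5 CPM unstretched and 75.6 to 139 CPM under high stretch, and under low stretch the log2 fold change was 1.07 with an edgeR adjusted p of 0.0582. Adm (-1.41) and Ndrg1 (-1.25) were the 2 of 14 hypoxia targets that passed, both lower. Without high-stretch replicate 1 or 3 or unstretched replicate 1, the edgeR adjusted p was 0.0791 to 0.107 for Myc, 0.0914 to 0.134 for Adm and 0.198 to 0.238 for Ndrg1, and Adm (0.0949) and Ndrg1 (0.0543) were also lost without high-stretch replicate 2, Ndrg1 also without unstretched replicate 2 (0.0603). Hk2 was lost without unstretched replicate 1 (0.065) or high-stretch replicate 3 (0.0626).

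At baseline 29.7% of all genes were higher and 32.7% lower in experiment 2, the shares against which the lists are set. All values of this paragraph are without the GC correction, which turned the direction of several members above. Directions in these lists are therefore not given independently of it. Of 77 mitochondrial ribosomal proteins 59 were higher and 4 lower in experiment 2 (median log2 fold change 1.01), led by Mrps34, Mrps24 and Mrpl54. Among complex I assembly factors 13 of 19 were higher and 3 lower, among glycolytic genes 14 of 20 higher and 1 lower, and among import genes 13 of 18 higher and 3 lower. Genes of mitochondrial RNA synthesis and stability had a share of higher calls near that of all genes, with 11 higher and 14 lower of 30 (median -0.29), and Mterf1a (-1.89), Trmt10c (-1.76) and Mterf3 (-1.63) had the lowest p of the list. Of 14 regulators 3 were higher and 7 lower, among them Gabpa, the factor whose word was counted in the promoters, at -1.92.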

How the data were processed

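RNA was poly(A)-selected, prepared with a stranded kit and sequenced as paired reads, per the labels' protocols. The authors deposited whole-number counts per gene and TPM per transcript. The submitters' processing notes name STAR 2.7.5c, featureCounts of Subread 2.0.0, Salmon 1.9.0 and DESeq2 1.38.3, without roles, and how reads that fit several genes or strands were treated is not given in the sources used here. For tests on gene counts edgeR 4.0.16 was used (R 4.3.3, TMM scaling, filterByExpr, quasi-likelihood test, Benjamini-Hochberg adjustment over all genes tested, threshold 0.05), after tests on simulated data. Each fit held the groups compared. CPM were computed from the counts, and deposited TPM were summed over transcripts per gene. Lengths and GC content came from GENCODE M21 for 52135 of 55416 genes. Shares of 100-base words were computed on its transcripts, promoters came from RefSeq, and gene coordinates were not used because the builds differ.

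Members and gene lists were chosen with earlier results of these data known. Named were the mitochondrial genes, tissue isoform families, up to 5 members with the largest change each way among those called (the 3 with the lowest p where fewer than 3 were), the highest and lowest members per complex by TPM, and up to 3 genes of each other list. Ndufs1, Uqcrb, Cox7b, Cox8b and Atp5f1 were named after their values were seen, as were the members called with the plate run as a block. Alternatives were DESeq2 1.42.0, RLE size factors, other filters, GC and length corrections (lowess, span 0.3), size factors without mitochondrial genes, all 15 samples in 1 fit, plate run and replicate blocks and leaving out each sample. Replicate numbers did not pair samples: same-numbered samples correlated at -0.638 to 0.53 (low stretch), -0.519 to 0.836 (high stretch) and -0.066 to 0.47 (baseline). The level of 1 marker gene is not reported here.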

Additional observations from a re-analysis of the deposited data

Results flagged for a closer look

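In the low-stretch group mt-Nd6, the complex I gene on the light strand of mitochondrial DNA, stood at 798 CPM in replicate 5 and at 335 to 477 CPM in the other 5 samples, a gap that is large against the range of the group. Replicate 5 also had the highest summed mitochondrial share of its group. Chance flags about 1 in 20 groups, and 55 groups of values were examined.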

How the results depend on the processing

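The number of members called under low stretch, 0, became 2 with DESeq2, 1 without a filter, 1 with the length correction, 1 with the GC correction, 1 with all 15 samples in 1 fit, 8 with the plate run as a block and 0 to 1 on leaving out 1 sample. Under high stretch it went from 1 to 2 with DESeq2, the GC correction (Cox7b higher), all 15 samples or the plate run block, and to 0 to 2 on leaving out 1 sample. Blocking on replicate number gave counts of 0 (low stretch), 2 (high stretch), 79 (baseline) and 0 (difference), and the mitochondrial medians 0.03, -0.33, -1.34 and -0.27. The numbers were not shown to pair the samples, and in experiment 2 they are the plate runs. The share of all genes called changed with the setting too. Under low stretch it was 5.45% in the main fit, 13.1% with DESeq2 and 28.2% with the plate run block. Counts of members called in this section are therefore not read as results about the members.

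The GC correction turned the baseline mitochondrial median from -1.29 to 0.74. Single genes that turned were mt-Cytb (0.10), mt-Nd4 (0.57), mt-Atp8 (1.02), mt-Nd5 (0.54), mt-Nd1 (0.63), mt-Nd2 (1.68), mt-Nd6 (1.08), mt-Co1 (0.74), mt-Co2 (0.50), mt-Co3 (1.67), mt-Atp6 (1.18), Uqcrb (0.98), Cox7b (0.89) and Atp5f1 (1.80). The cause was not tested. Genes near 0 at baseline also turned: Sdha with a mean count of at least 100 (-0.11) and without unstretched replicate 1 of experiment 1 or 3 of experiment 2 (-0.03 and -0.14), and Cox6b2 with DESeq2 (0.079), RLE (0.025), no filter (0.022), the replicate block (0.012), all 15 samples (0.016) and on leaving out 1 sample (-0.55 to 0.28).

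On leaving out 1 sample the mitochondrial median ran from -0.65 to -0.03 for the difference between stretch effects, from -0.52 to -0.03 for high stretch and from -1.64 to -1.07 at baseline, where 69 to 87 members were called and the nuclear median was 1.07 to 1.40. As a percent of TPM, mitochondrial members took 12.5 and 12.2 (unstretched and low stretch) and 4.11 and 3.12 (unstretched and high stretch), and nuclear members 2.29, 2.28, 3.52 and 3.28. The median level per length of the nuclear members at 1 TPM or more, averaged over the samples, was 254 in TPM and 157 from counts per kilobase scaled like TPM. Of the values for groups of members under the alternatives, 234 stayed within the replicate spread or, for counts, within 1.5 times, 30 moved beyond that and 1 turned. Rare isoforms such as Cox6a2 are limited by their low counts.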
